A study of Mus musculus with 6 samples.

Results

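Mature miRNAs of 4 related mouse families, miR-297, miR-466, miR-467 and miR-669, were read out in small RNA libraries of cardiac progenitor cells. Members were the rows of the known miRNA table whose name is miR-297, miR-466, miR-467 or miR-669 followed by a letter, on any arm of the hairpin, with at least 10 counts in total over the 6 libraries. Of 80 rows with such names 69 qualified, of 1978 known miRNA rows in all, and 3 of the 11 left out had no count in any library. Among the 69 were 6 rows of miR-297, 30 of miR-466, 11 of miR-467 and 22 of miR-669.

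The cells were c-kit+ cardiac progenitor cells, sorted with antibody-coupled magnetic beads from digested hearts of wild-type male C57BL/6 mice aged 4 to 6 weeks. The control group comprised 3 libraries labelled with 0 hours, and the hypoxia group 3 libraries of cells kept under hypoxia for 12 hours. The labels give hypoxia as the treatment of both groups and name exosomes as the source of the RNA where the design text names cells. The titles call the replicates biological, but no label says whether they came from separate animals or cultures. The p-values therefore set group differences only against the scatter of these libraries, and how much of that scatter is technical is not known. Hypoxia cannot be told apart from culture time unless the controls were cultured as long. Columns carry the prefix 0 or 1 and a letter, A to C. Prefix 0 was read as the control at 0 hours and prefix 1 as hypoxia, and every direction below rests on that reading.

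Sfmbt2 encodes a Polycomb group protein and is imprinted in the mouse, with expression from the paternal allele in the placenta. One of its introns carries a rodent-specific array of miRNA hairpins, and each hairpin can give a mature miRNA from its 5' arm (5p) and from its 3' arm (3p). A mature miRNA recognises its targets mainly through the seed, bases 2 to 8. In cardiac progenitors, miR-669a is known as a repressor of MyoD, the master regulator of skeletal muscle, and miR-467b is known in macrophages as a repressor of lipoprotein lipase.

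RefSeq mature sequences (GRCm38.p6) were at hand for 5 of the 69 members, all of them encoded outside Sfmbt2. They are shown for their low-complexity letters, runs of alternating U and G or A and C. None is of miR-297 or miR-669. All 5 lie on the plus strand of their chromosomes, at the hairpins given below. Capitals mark the seed.
miR-466i-3p: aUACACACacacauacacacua
miR-466k: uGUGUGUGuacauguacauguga
miR-466j: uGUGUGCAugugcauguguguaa
miR-466q: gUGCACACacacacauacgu
miR-467h: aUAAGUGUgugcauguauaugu
Of the neighbouring base pairs along these strands, 71.4% in miR-466i-3p, 77.3% in miR-466k, 72.7% in miR-466j, 78.9% in miR-466q and 52.4% in miR-467h were UG, GU, AC or CA. Over the 1679 mature miRNAs of the sequence table the median was 28.6% and the 95th percentile 45.5%, so all 5 lay above that percentile. The 5 seeds differed from each other, and only that of miR-467h occurred in another entry of the table, miR-668-5p. The other 64 members have no sequence in that table, so seeds shared with them could not be seen.

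The annotation placed 71 hairpins of the 4 families inside Sfmbt2, which spans 10370510 to 10595253 on the plus strand of chromosome 2 (GRCm38). All 71 lay on the plus strand in intron 10 of its main transcript of 23 exons, between 10461473 and 10523944, and none overlapped an exon. From the first base to the last they covered 51.6 kb of that 62.5 kb intron, with a median gap of 210 bases. The annotation holds 48 further miRNA genes inside Sfmbt2 under other symbols. They are left out of these figures, so gaps here and numbers of copies throughout rest on symbols alone. The middle of the array is a repeat in which copies of miR-467a, miR-466b and miR-669a follow one another, with a median of 2.46 kb between the 10 copies of miR-467a.

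By hairpin symbol 56 members were encoded in Sfmbt2 alone, 5 both there and elsewhere, 6 elsewhere alone, and 2 (both arms of miR-466a) matched no symbol. The intron also holds a hairpin whose symbol, Mir466, has no letter (10507918 to 10507990). No row was assigned to it, and whether it encodes miR-466a was not tested, so those 2 rows may belong to the intron as well. The 5 in both places were the arms of miR-297a, with a further copy on chromosome 7 (10958437 to 10958512, minus strand), and the 3 rows of miR-466f, with a further copy on chromosome 13 (71107089 to 71107209). The 6 members outside were both arms of miR-466i (chromosome 13, 17747473 to 17747593), miR-466j (chromosome 10, 60960723 to 60960844), miR-466k (chromosome 3, 85467377 to 85467498), miR-467h (chromosome 9, 115381819 to 115381939) and miR-466q, which lies within Tnik (chromosome 3, 28419943 to 28420018). The name of the array thus fits most, not all, of the rows.

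**Figure D1:**
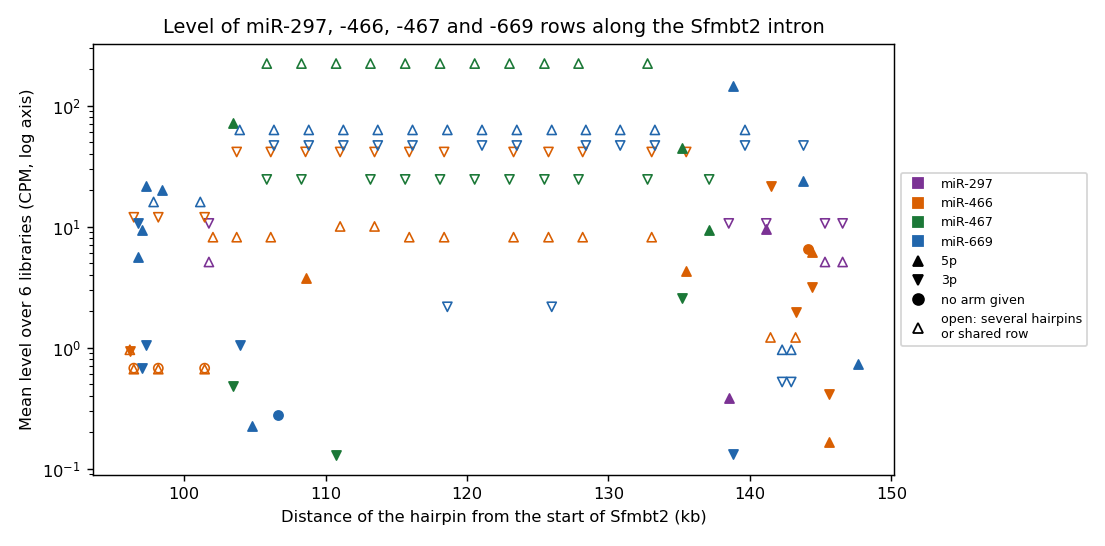
Mean level over the 6 libraries (CPM, log axis) of each miR-297, miR-466, miR-467 and miR-669 row against the distance of its hairpins from the start of Sfmbt2 in kb. Filled symbols are rows of a single hairpin and open symbols are rows with several hairpins or with shared reads, drawn at each copy, so that 222.5 CPM for miR-467a-5p recurs along the repeat while miR-669c-5p, at 144.4 CPM, lies at a single point near the downstream end.

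Many rows were not separate measurements. In 9 sets holding 22 members, the counts lay within 1% of each other in every library, which leaves 56 readouts among the 69 rows. miR-466f and miR-466f-5p are counted as 2 of these, although they differed by 1 count in 1 library (17 against 16) and were identical in the other 5, since 1 count exceeds 1% at that depth. Counts were identical in all 6 libraries in 8 of the sets. They were miR-467a-5p with miR-467b-5p, miR-467a-3p with miR-467d-3p, miR-669a-5p with miR-669p-5p, miR-669a-3p with miR-669o-3p, the 3p arms of miR-297a, miR-297b and miR-297c, miR-466b-5p with miR-466o-5p, miR-466d-5p with miR-466n-5p, and miR-466m-5p with miR-669m-5p. In the largest set, the 3p arms of miR-466a, miR-466b, miR-466c, miR-466e and miR-466p, rows differed by at most 4 counts in any library. A read counted in each of several rows also enters a sum several times, so sums below count each set once.

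Levels are given as CPM, counts divided by the library's total of known miRNA reads and set on a common scale with TMM factors. They are not corrected for length, mature miRNAs being nearly equal in it. Library totals ran from 12285970 to 16975987 counts, and a row without counts in the shallowest of them may still have had up to 0.244 CPM, the level of 3 counts. Summed over its 2 rows, the miRNA defining endothelium, miR-126a, gave 200685 to 249670 CPM. Sums over the lists were 26430 to 58194 CPM for smooth muscle and fibroblast miRNAs, 76.5 to 173 for cardiomyocyte miRNAs and 45.9 to 59.9 for blood miRNAs. Of the 9 cardiomyocyte rows, 3 were at 0 (miR-499-3p, miR-208b-5p and miR-208a-5p). Of 20 rows of the embryonic stem cell and trophoblast clusters, 8 were at 0 and the sum stayed at or below 1.10 CPM. Kit itself is an mRNA and was not measured. In bulk RNA, fewer cells of a type and less RNA per cell cannot be told apart, and if the RNA came from exosomes these levels do not describe the makeup of the cells.

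Together the 56 readouts stood at 866, 946 and 962 CPM in control A, B and C and at 928, 823 and 913 CPM in hypoxia A, B and C. The groups overlapped, with means of 924 ± 51.4 and 888 ± 57.1 CPM (SD, n = 3 each). As a share of known miRNA counts this was 0.0790% to 0.0996% per library, the lowest with an exact Clopper-Pearson 95% interval of 0.0777% to 0.0804% and the highest with 0.0980% to 0.101% (counting error only). With each row counted, shares ran from 0.127% to 0.163%.

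A few rows carried most of that signal. miR-467a-5p and miR-467b-5p, the shared readout of 11 hairpins, averaged 222.5 CPM over the 6 libraries, 24.6% of the sum, and stood at rank 125 of the whole table. Next was miR-669c-5p with 144.4 CPM, or 15.9%, from a single hairpin (10509296 to 10509404). miR-467c-5p, also of a single hairpin (10473931 to 10474027), gave 71.2 CPM, and miR-669a-5p with miR-669p-5p, the readout of 14 hairpins, gave 62.9 CPM. The number of copies by symbol thus did not set the order of these 4. The 10 most abundant readouts held 77.7% of the sum. At the other end 20 members averaged under 1 CPM, and the median of the 57 members that passed the expression filter was 9.43 CPM, against 18.8 CPM for all 619 miRNAs that did. Unshared rows with a single hairpin by symbol, in Sfmbt2, numbered 32, with a median of 3.46 CPM and a range from 0.129 to 144.4 CPM.

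**Figure D2:**
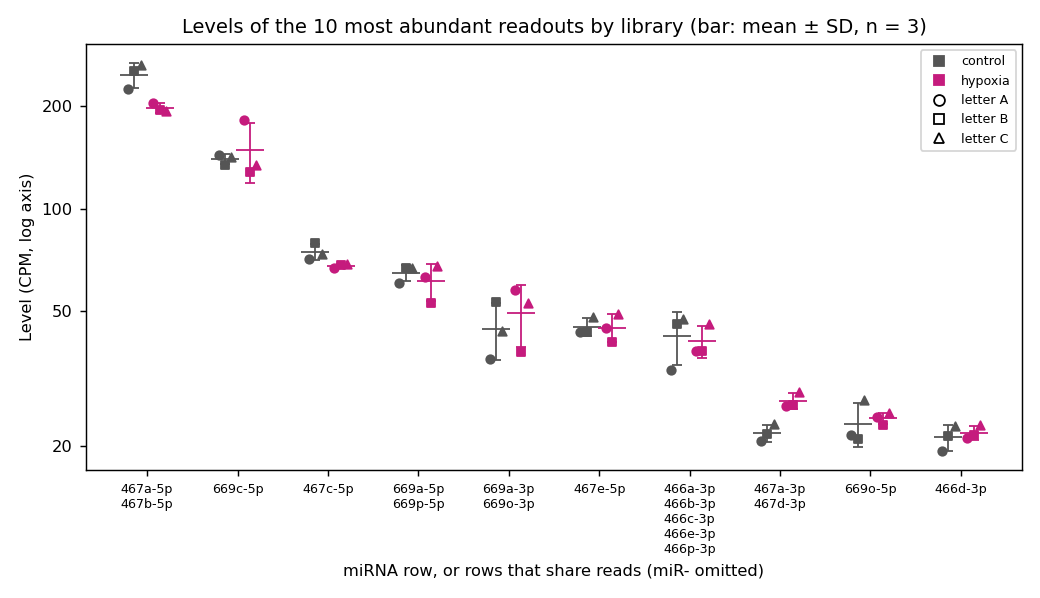
Level in each library (CPM, log axis) of the 10 most abundant readouts, control in grey and hypoxia in magenta, with symbols for the column letters and bars for mean and SD (n = 3). The hypoxia libraries lie below the control libraries for miR-467a-5p and miR-467b-5p and above them for miR-467a-3p and miR-467d-3p, while hypoxia A stands apart for miR-669c-5p at 182.9 CPM.

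The more abundant arm was not the same in every subfamily. Both arms passed the expression filter for 22 names. The 3p arm had more counts than the 5p arm in every library for 11 of them and the 5p arm for 7, and 4 differed between libraries. Within miR-466, 7 names were 3p-dominant (miR-466a to miR-466f and miR-466p), of which miR-466a, miR-466b, miR-466c, miR-466e and miR-466p use the same shared 3p reads, and only miR-466h was 5p-dominant in all 6 libraries. Within miR-669, miR-669a, miR-669b, miR-669e and miR-669p were 5p-dominant (miR-669a and miR-669p on shared 5p reads), while miR-669f and miR-669o were 3p-dominant. However, the 3p row of miR-669o is the one it shares with miR-669a. miR-297a was also 3p-dominant, on 3p reads shared with miR-297b and miR-297c. Among those with both arms tested, miR-467a and miR-467e were 5p-dominant and miR-467d was 3p-dominant, but the 3p row of miR-467d is the one it shares with miR-467a.

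For 3 abundant 5p rows the other arm missed the filter. For miR-669c the 5p arm stood at 144.4 CPM and the 3p arm at 0.132 CPM, from 12 counts in all libraries together. For miR-467c the values were 71.2 and 0.476 CPM. miR-467b-5p shared its 222.5 CPM with miR-467a-5p, whereas miR-467b-3p, which no other row shared, had 0.129 CPM from 11 counts, against 24.5 CPM for miR-467a-3p. Ratios of arms join rows that may draw on different hairpins.

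The comparison of hypoxia with control was fitted on all 619 known miRNAs that passed the filter, with edgeR's quasi-likelihood test. Of the 69 members 57 were tested and 12 were not, the latter all under 1 CPM. No member was called, and no miRNA of the table was either (0.0% of 619, edgeR with Benjamini-Hochberg adjustment at 0.05). At an unadjusted p under 0.05 stood 1 of the 57 members, miR-297b-5p, against 42 of 619 miRNAs (6.79%). limma-voom on the same 57 called 0 members, with 1 at that unadjusted p. Over all 619 miRNAs it called 0, with 43 at that p. DESeq2 on all 69 also called 0 members, with 1 at that unadjusted p. Over the 1322 miRNAs in its fit it called 1, with 45 at that p.

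Same-lettered libraries deviated from their group means together, so the same test was also run with column letter as a blocking factor. It called 14 miRNAs (2.26% of 619) and again no member, and the lowest adjusted p of a member was 0.066 for miR-297b-5p (edgeR). At an unadjusted p under 0.05 it had 6 of 57 members, or 4 readouts, and 132 of all 619 miRNAs (21.3%). Those members were miR-297b-5p, miR-466f-3p, miR-467a-5p with miR-467b-5p, and miR-467a-3p with miR-467d-3p.

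Log2 fold changes of the 57 members ran from -0.77 (miR-466f) to 1.12 (miR-466a-5p), both rows under 1 CPM, and from -0.51 (miR-466i-3p) to 0.59 (miR-297b-5p) among rows of at least 1 CPM, with a median over the 57 of -0.01 against 0.01 for all 619. Above 0 were 27 of 57, or 47.4%, against 51.2% of all tested. With scaling to library size alone it was 36 of 57, or 63.2%, against 60.3% of all. Rows that share reads were each counted in these shares and in the medians. Within letters the median log2 ratio of the members was 0.09 in pair A, -0.25 in pair B and 0.02 in pair C, while the medians over all tested miRNAs were 0.01, -0.01 and 0.00. By that median the members were lower in hypoxia in pair B and near 0 in pair C, and the pairs did not share a direction. Groups did not overlap for 9 of 57 members (15.8%), against 12.9% of all tested miRNAs, which is near that background. Of the 9, 5 were higher in hypoxia (7.43% of all tested miRNAs were) and 4 lower (5.49%). Counting shared rows once, these were 7 readouts, 4 higher and 3 lower. Among the higher ones, miR-466a-5p could pass the filter through the group in which it was high.

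**Figure D3:**
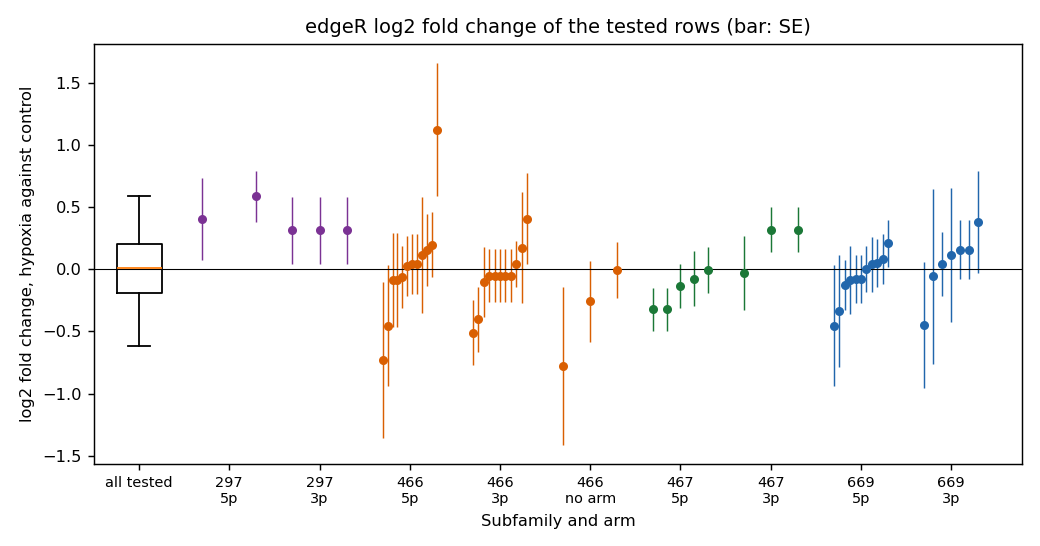
edgeR log2 fold change of hypoxia against control for the 57 tested members by subfamily and arm, with bars for the standard error, beside a box of all 619 tested miRNAs (box for quartiles, whiskers for the 5th and 95th percentiles). The 5 tested rows of miR-297 lie above 0 and the 5 rows of miR-467 5p lie below 0, with no row past the adjusted threshold.

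The log2 fold change was above 0 in all 5 tested rows of miR-297, from 0.32 to 0.59, but 3 of them are the same reads. miR-297b-5p (hairpin at 10511667 to 10511775) stood at 8.02, 7.53 and 7.45 CPM in control A, B and C and at 12.4, 12.0 and 10.1 CPM in hypoxia A, B and C, from 98 to 207 counts. Each hypoxia library thus lay above each control library. Its means were 7.67 ± 0.306 and 11.5 ± 1.24 CPM (SD, n = 3 each), 1.5-fold apart, with a log2 fold change of 0.59 (SE 0.20, edgeR unadjusted p = 0.020, adjusted p = 0.65). The adjusted p over 18 alternative settings ran from 0.066 to 0.9992.

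The other rows of miR-297 overlapped between the groups. miR-297a-5p had 6.23, 2.84 and 4.07 CPM in control A, B and C against 6.01, 4.66 and 6.75 CPM in hypoxia, with pair A lacking the difference that pairs B and C showed. The shared 3p readout of miR-297a, miR-297b and miR-297c had 7.37, 13.1 and 7.96 CPM against 10.5, 11.5 and 13.3 CPM, and there pair B went the other way. miR-297c-5p was not tested, with 4, 0 and 12 counts in control and 7, 0 and 11 in hypoxia, at 0 in both B libraries.

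The summed arms of miR-467 lay on opposite sides, each through 1 shared readout. The 5p rows, each shared set once, summed to 349, 384 and 396 CPM in control A, B and C and to 325, 314 and 319 CPM in hypoxia, lower in each hypoxia library than in each control library. Their log2 ratio of means was -0.24. With scaling to library size alone it was -0.17 and the groups overlapped. The 3p rows summed to 23.6, 24.7 and 26.5 CPM in control and to 29.5, 29.3 and 32.6 CPM in hypoxia, a log2 ratio of 0.29 with no overlap under any of the 3 scalings.

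Both differences came mainly from the most abundant readout of each arm. miR-467a-5p with miR-467b-5p stood at 225, 253 and 264 CPM in control and at 205, 195 and 193 CPM in hypoxia, a log2 fold change of -0.32 (SE 0.17, edgeR unadjusted p = 0.094, adjusted p = 0.77). With the letter block it was -0.32 (SE 0.12, adjusted p = 0.17). miR-467a-3p with miR-467d-3p stood at 20.6, 21.7 and 23.2 CPM in control and at 26.2, 26.5 and 29.0 CPM in hypoxia, a log2 fold change of 0.32 (SE 0.18, edgeR unadjusted p = 0.11, adjusted p = 0.79). With the block it was 0.32 (SE 0.12, adjusted p = 0.18). Neither passed, and the groups did not overlap in either. The other 5p rows had smaller values. miR-467c-5p had a log2 fold change of -0.14, with 71.2, 79.2 and 73.3 CPM in control against 66.7, 68.1 and 68.7 CPM in hypoxia, and miR-467e-5p, at 44.8 CPM, one of -0.01. miR-467d-5p overlapped between the groups at -0.07, with pair B at 0.33. The only other tested 3p row, miR-467e-3p, had -0.03, and 0.033 with scaling to library size alone.

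A ratio of the arms within a library needs no scaling. The counts of miR-467a-5p were 10.9, 11.7 and 11.4 times those of miR-467a-3p in control A, B and C, and 7.83, 7.35 and 6.67 times in hypoxia A, B and C. The means were 11.3 ± 0.411 and 7.28 ± 0.579 (SD, n = 3 each), and the 2 groups lay apart by far more than the spread within either. This ratio was chosen after its values were seen, and so was its test, limma on the log2 ratio over all 189 names with both arms tested. There the change was -0.64 (SE 0.22, unadjusted p = 0.0065, limma adjusted p = 0.11) and ranked 11 by p. With the letter block the limma adjusted p was 0.053. Groups did not overlap for 2 of the 22 names of the array, miR-467a and miR-466a, against 18.5% of the 189, and limma called 0 of 22 against 3.7% of 189, or 5.29% with the block. At an unadjusted p under 0.05 stood 2 of the 22 names, against 15.9% of the 189. For miR-467a the limma adjusted p was below 0.05 only without control A (0.044), and over the other alternatives it ran up to 0.43.

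**Figure D4:**
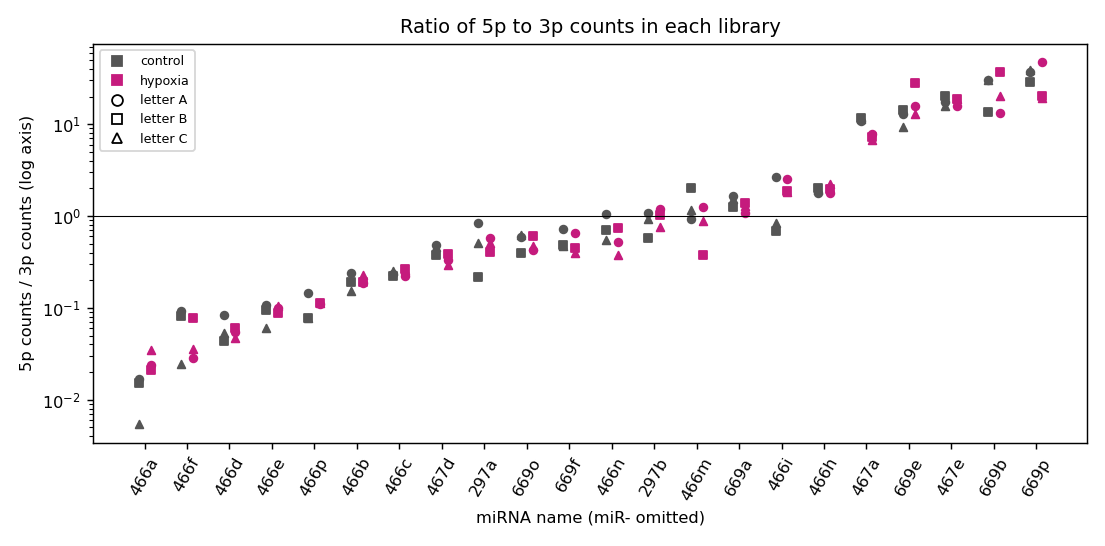
Ratio of 5p to 3p counts in each library (log axis) for the 22 names with both arms tested, control in grey and hypoxia in magenta, with symbols for the column letters and a line at equal counts. Most miR-466 names lie below the line, and for miR-467a the control libraries lie at 10.9 to 11.7 and the hypoxia libraries at 6.67 to 7.83.

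Rows of miR-466 scattered around 0. Of 26 tested, 10 lay above 0, and the median log2 fold change was -0.05. Rows that share reads were each counted here, and the median is the value of a 3p readout that fills 5 of the rows. The shared 3p readout of miR-466b and its 4 companions stood at 33.4, 45.6 and 47.1 CPM in control A, B and C and at 38.1, 38.2 and 45.7 CPM in hypoxia (log2 fold change of miR-466b-3p -0.05, SE 0.21), with overlapping groups. miR-466d-3p, from a single hairpin, had 19.4, 21.4 and 23.0 CPM against 21.1, 21.5 and 23.0 CPM. miR-466c-5p, the most abundant 5p row of the subfamily, had 7.77, 10.1 and 11.8 CPM against 8.42, 10.1 and 11.8 CPM, so that pairs B and C were level.

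The largest log2 fold change of a member was that of miR-466a-5p, 1.12 (SE 0.53, edgeR unadjusted p = 0.067, adjusted p = 0.74). It rested on 7, 9 and 4 counts in control and 15, 13 and 22 in hypoxia. The row reached 10 counts in the 3 hypoxia libraries only and so could pass the filter through the group in which it was high. Its log2 fold change was 0.74 without hypoxia C, and over all alternatives the lowest was 0.42, blocked and without pair C.

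Rows of miR-669 also scattered around 0, with 10 of 18 tested above 0 and a median of 0.02. miR-669c-5p had 144.2, 134.6 and 141.98 CPM in control A, B and C and 182.9, 128.4 and 134.5 CPM in hypoxia, a log2 fold change of 0.08 (SE 0.20), and hypoxia A alone lay above the controls. Without hypoxia A the log2 fold change was -0.10. miR-669a-5p with miR-669p-5p, the MyoD repressor's readout, had 60.5, 66.7 and 66.7 CPM against 62.9, 52.9 and 67.9 CPM, a log2 fold change of -0.08 (SE 0.19). miR-669a-3p with miR-669o-3p had 36.2, 52.9 and 43.6 CPM against 57.5, 37.8 and 52.7 CPM, where pair B ran opposite to pairs A and C. miR-669d-5p was the only miR-669 row whose groups did not overlap, with 15.5, 13.4 and 15.5 CPM against 16.5, 15.8 and 19.1 CPM (log2 fold change 0.21, SE 0.19, edgeR adjusted p = 0.94).

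Members encoded only outside the intron were few and made up little of the sum. Their 6 rows summed to 17.7, 10.5 and 10.3 CPM in control A, B and C and to 12.3, 10.4 and 11.0 CPM in hypoxia, 1.33% of the sum over all readouts. miR-466i was the most abundant of them. miR-466i-3p, printed above, stood at 3.56, 4.15 and 3.57 CPM in control and at 2.52, 2.70 and 2.69 CPM in hypoxia, lower in each hypoxia library (log2 fold change -0.51, SE 0.26, edgeR unadjusted p = 0.086, adjusted p = 0.77). miR-466i-5p had 9.47, 2.84 and 2.99 CPM against 6.43, 5.09 and 4.93 CPM, with control A at 117 counts against 37 and 47 in control B and C, and overlapping groups. miR-466k had 3.72, 2.84 and 2.29 CPM against 2.52, 1.96 and 2.90 CPM. miR-466j, miR-466q and miR-467h had 29, 14 and 30 counts over all libraries and were not tested.

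Beside other large miRNA arrays the summed level of the Sfmbt2 families lay below 1 and above 2 others. In the imprinted Mirg array, 66 of 72 rows had 10 or more counts, and its summed level ran from 4572 to 10214 CPM with every row counted, against 1319 to 1573 CPM for the 69 members counted likewise. In that array 57 rows were tested, of which 33 lay above 0 (median 0.04), 0 were called without and 3 with the letter block, and 0 had groups that did not overlap. In a rodent array on the X chromosome 11 of 30 rows reached 10 counts, with a summed level of 2.88 to 11.0 CPM, and in the miR-290 array of embryonic stem cells and trophoblast 1 of 18 did, with 0 to 1.02 CPM. No known row outside the 4 families could be placed in Sfmbt2 by symbol. These are side-by-side values, and no difference between the arrays was tested.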

How the data were processed

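The authors deposited whole-number read counts per known mature miRNA, 1 column per library, and the table of predicted miRNAs was not used here because its names give no position. Tools and build listed in the submitters' processing notes are bcl2fastq 2.0, DESeq2 and mm10, while the aligner and the rule for reads matching several miRNAs are, in the sources used here, not given. The analysis used edgeR 4.0.16 under R 4.3.3 (filterByExpr, TMM, quasi-likelihood test, Benjamini-Hochberg over all 619 tested rows), with DESeq2 1.42.0 and limma 3.58.1 as alternatives. SEs are the log2 fold change over the square root of F, and within-letter ratios used a pseudocount of 0.5 CPM (arm ratios, 0.5 counts). The edgeR and arm-ratio fits were tested on simulated data with changes larger than those of miR-297b-5p and the miR-467a arms. How often changes as small as these would be called was not tested. Library depth was 12285970 to 16975987 counts. Hairpins were placed with GENCODE M21 (GRCm38), by symbol and, for miR-297a, by a RefSeq synonym.

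Members and lists were chosen with earlier results of these data known. Named were the 3 most abundant members per subfamily and arm, the 5 with the smallest p, members called, and sets sharing reads. Others (such as miR-669d-5p, miR-466f-3p and miR-466k) were named after their values were seen. Column letters match no replicate number of the titles. Same-letter deviations correlated at 0.66 (A), 0.56 (B) and 0.41 (C), unlike letters at -0.55 to 0.18, so the letters were taken as pairs from the values, not the labels. Deviations from a group mean cancel out within the group, so a positive same-letter value pulls the unlike ones down. Part of this contrast is therefore forced.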

Additional observations from a re-analysis of the deposited data

How the results depend on the processing

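The count of members called was 0 in all 18 alternative settings, and the median log2 fold change of the members ran from -0.10 to 0.06. Over all miRNAs, the letter block called 14 of 619, and 23 of 627 without pair B. The fit without a filter on low counts called 4 of 1322 and DESeq2 1 of 1322. No other alternative called any miRNA. The number above 0 ran from 18 (without hypoxia C) to 37 (blocked, without pair B), out of 56 to 69 tested. Without hypoxia C that was 31.03% of the members, against 50.31% of all tested miRNAs. In the blocked fit without pair B it was 66.07%, against 47.85%. The replicate block by column letter changed no call of a member. With scaling to library size alone, the log2 fold change turned positive for miR-466a-3p and miR-466e-3p (0.017), miR-466b-3p (0.020) and miR-467e-3p (0.033), and the miR-467 3p sum had a log2 ratio of 0.37 against 0.30, both with every row counted. Without single libraries that sum ran from 0.25 to 0.35, and log2 fold changes crossed 0 for miR-466c-5p (-0.14 to 0.17), miR-466b-5p and miR-466o-5p (-0.17 to 0.14), miR-466a-3p and miR-466e-3p (-0.22 to 0.032), miR-466b-3p (-0.21 to 0.031), miR-467e-3p (-0.17 to 0.11), miR-669c-5p (-0.097 to 0.15) and miR-669f-3p (-0.16 to 0.14). In the blocked fit without pair A, signs turned for miR-466c-5p (-0.0024), miR-669c-5p (-0.074), miR-669a-3p and miR-669o-3p (-0.10) and miR-669f-3p (-0.14). Without pair B they turned for miR-466a-3p and miR-466e-3p (0.038), miR-466b-3p (0.043) and miR-669a-5p with miR-669p-5p (0.013), and without pair C for miR-466b-5p and miR-466o-5p (-0.23) and miR-467e-3p (0.078). The cause was not tested. The log2 change of the miR-467a arm ratio ran from -0.69 to -0.58 without single libraries, and its limma adjusted p was below 0.05 without control A (-0.67, adjusted p = 0.044). miR-297b-5p, miR-467a-5p with miR-467b-5p, miR-467c-5p, miR-467a-3p with miR-467d-3p, and miR-466i-3p kept their direction in all 18 settings. So did miR-297a-5p, the 3p rows of miR-297a, miR-297b and miR-297c, and the low-count row miR-466a-5p. Rows under 1 CPM rest on a few counts per library and carry no usable comparison.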
